A study of Mus musculus with 11 samples.

Results

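The genes described here set and remove DNA methylation. They are the 3 Tet dioxygenases (Tet1, Tet2 and Tet3), the DNA methyltransferases Dnmt1, Dnmt3a and Dnmt3b, the Dnmt1 partner Uhrf1, and the isocitrate dehydrogenases Idh1 and Idh2. They were chosen by symbol, through the Ensembl gene IDs of the count table, and make up 9 of its 53700 genes. All 9 had counts in each of the 11 libraries and all 9 passed the filter on low counts, which left 16639 genes to test.

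Expression was measured by bulk RNA sequencing of short-term haematopoietic stem cells (ST-HSC), a multipotent population with limited self-renewal, which had been sorted from bone marrow of C57BL/6j mice. In all 4 groups the hosts had been transplanted with bone marrow of an acute myeloid leukaemia carrying Flt3-ITD, an activating duplication in a cytokine receptor, and lacking TET2. The hosts were CXCL12 KO (titled Cre_pos) or CXCL12 WT (titled Cre_neg); CXCL12 is the chemokine by which marrow stroma retains stem cells. They received the combination of cytarabine, doxorubicin and quizartinib, which pairs cytotoxic drugs with an inhibitor of the FLT3 kinase, or vehicle. The groups were KO treated (libraries 257, 263 and 276), WT treated (252, 262 and 266), KO vehicle (249 and 275) and WT vehicle (240, 253 and 265). The labels name no Cre driver, no Tet2 allele and no age, and do not state whether each library is a separate animal, so the p-values speak only of the spread among these samples. Whether the sorted cells were leukaemic or came from the host was not tested. In bulk samples, fewer cells of a type and less RNA per cell cannot be told apart.

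Gene counts per library ran from 8.13 to 31.1 M. All treated libraries were deeper (at least 22.4 M) than all vehicle libraries (at most 22.2 M), and depth and treatment cannot be told apart. All 8 stem cell markers had counts in each group, summing to 438 to 1042 CPM (counts scaled to library size) in KO treated, 260 to 508 in WT treated, 448 to 723 in the KO vehicle and 193 to 728 in WT vehicle libraries. In WT vehicle library 253 the stem cell markers Hlf and Procr had 1 count each. The 8 erythroid markers summed to 18229 to 87627 CPM in KO treated and 198 to 505 in WT treated libraries, and to 273 to 14206 CPM in the KO vehicle and 50.1 to 849 in WT vehicle libraries. Across genes, the deviation of a library from the overall mean was related to transcript length, with a Spearman rho of -0.21 in KO treated library 257 and of -0.29, -0.38 and -0.31 in WT treated libraries. In the other 7 libraries rho lay between 0.03 and 0.34 (genes are not independent replicates). On the first components of variation, libraries 253 and 265 stood away from the remaining 9.

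Tet enzymes oxidise methylated cytosine to hydroxymethylcytosine and further forms, which are then lost as DNA is copied or cut out by base excision repair. Dnmt3a and Dnmt3b place new methyl groups, while Dnmt1, guided by Uhrf1 to hemimethylated DNA behind the replication fork, copies the existing pattern. Idh1 and Idh2 make 2-oxoglutarate, which Tet enzymes need as a co-substrate. In blood stem cells TET2 and DNMT3A are among the genes most often mutated in clonal haematopoiesis. Together with IDH1 and IDH2 they are also often mutated in acute myeloid leukaemia.

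Levels between genes were compared as TPM (counts per kilobase of the longest annotated transcript, scaled to a fixed total). Averaged over the 11 libraries, Idh2 stood highest at 386 ± 128 TPM, followed by Idh1 at 106 ± 61.1, Uhrf1 at 96.5 ± 59.8 and Dnmt1 at 71.4 ± 42.4 (SD, n = 11 libraries of 4 groups). Dnmt3b followed at 19.99 ± 12.4 TPM, Dnmt3a at 8.90 ± 4.79, Tet3 at 6.34 ± 2.40, Tet2 at 3.65 ± 2.10 and Tet1 at 2.39 ± 1.82. Idh2 exceeded Idh1, Dnmt1 exceeded Dnmt3b, and Dnmt3b exceeded Dnmt3a in 11 of 11 libraries. Idh1 exceeded Uhrf1 in only 6 of 11 libraries and Dnmt3a exceeded Tet3 in 8 of 11, so these neighbours did not keep one order. Tet3 exceeded Tet2 in 10, Uhrf1 exceeded Dnmt1 in 10 and Tet2 exceeded Tet1 in 9 of 11 libraries. The maintenance pair Dnmt1 and Uhrf1 and the Idh genes each averaged more TPM than the Tet genes.

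**Figure D1:**
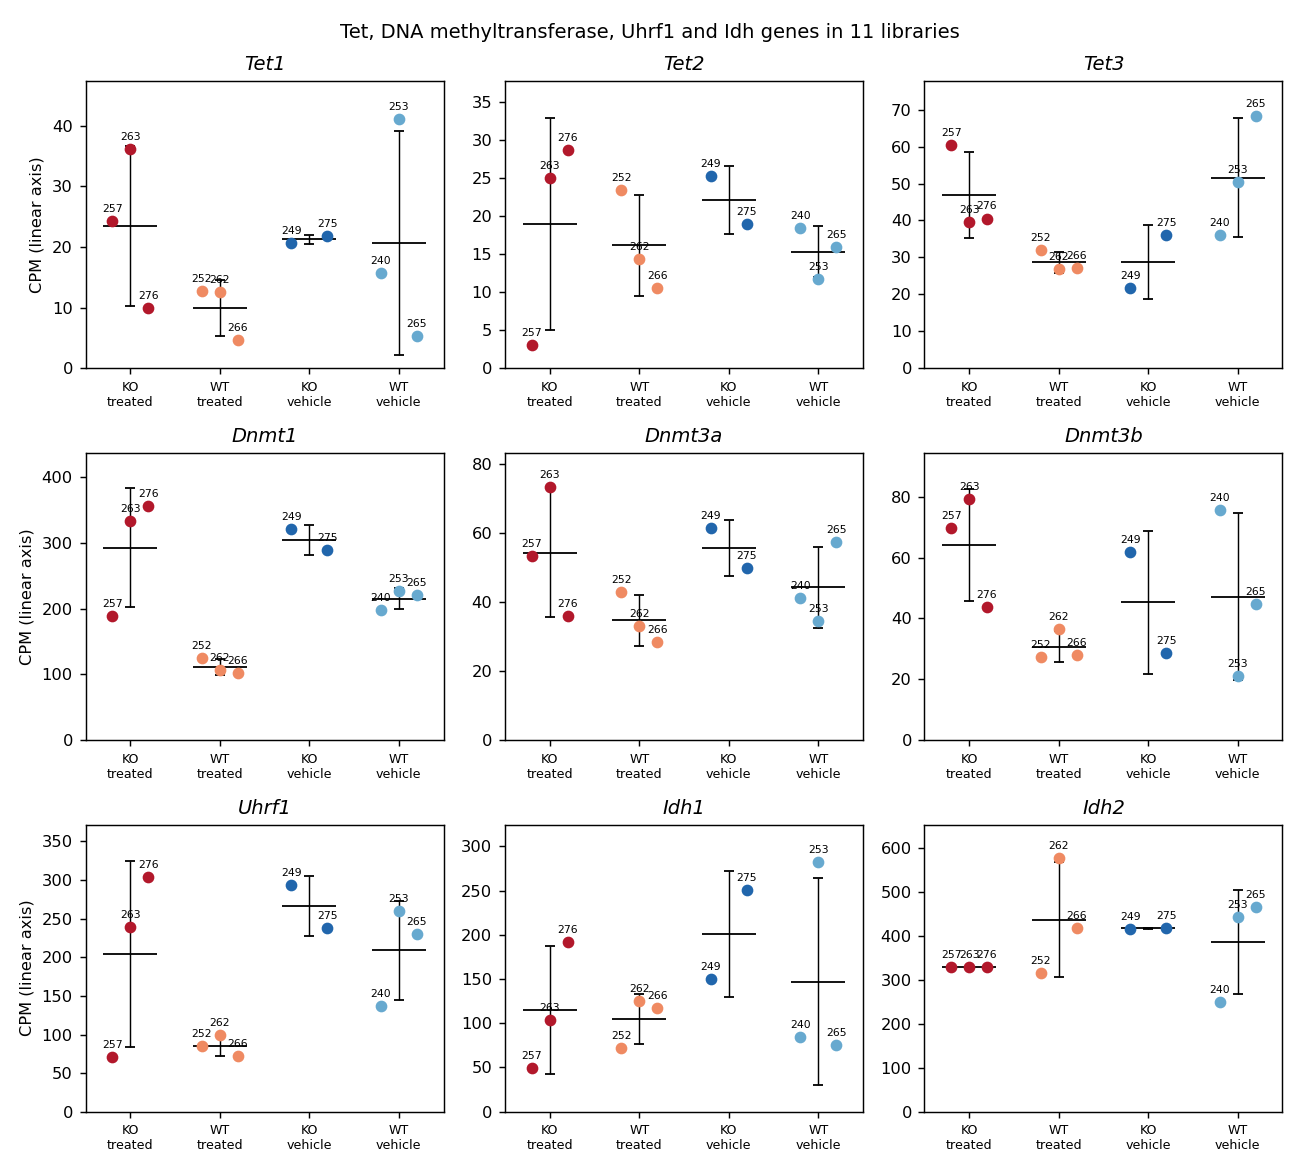
CPM (linear axis from 0) of each of the 9 genes in every library, by group, with the group mean (horizontal line) and SD (bar). Dnmt1 lay between 101 and 125 CPM in the WT treated libraries and at 189 CPM or more in the other 8; Tet2 lay at 2.99 CPM in KO treated library 257 and at 10.6 CPM or more in the other 10.

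Tet2 is the gene that the leukaemia lacks by its description, and its transcripts were present in all 11 libraries. Libraries are given in the order of the groups above. Tet2 had 2.99, 25.1 and 28.7 CPM in KO treated, 23.5, 14.4 and 10.6 CPM in the WT treated, 25.3 and 19.0 CPM in the KO vehicle and 18.4, 11.7 and 15.9 CPM in WT vehicle libraries. Library 257 had the lowest value of the 11, from 65 counts, and the other KO treated libraries averaged 9.0 times its level. The remaining 10 libraries spanned 10.6 to 28.7 CPM, and of the pairs of groups compared only the vehicle pair did not overlap, with KO above WT. These counts cover all exons together, so they cannot show the loss of one exon, and they check neither the Tet2 genotype nor the origin of the cells. Of its exonic bases, 43 (0.255%) lie over Gm42567 on the opposite strand, whose reads an unstranded kit cannot separate. The log2 fold change of Tet2 was 0.23 ± 0.69 for KO over WT in treated hosts (edgeR adjusted p = 0.953; SE here and below) and 0.53 ± 0.76 in vehicle hosts (edgeR adjusted p = 0.960). Without library 257 the treated-host value was 0.73, and with the length trend removed it was -0.37. Without KO vehicle library 249 the vehicle-host value was 0.32.

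The factor named in the host genotype was also measured in the sorted cells. In treated hosts Cxcl12 had 2.90, 1.20 and 4.63 CPM in KO and 0.87, 1.59 and 0.83 CPM in WT libraries. In vehicle hosts it had 0 and 5.36 CPM in KO and 14.4, 0 and 0.12 CPM in WT libraries. All 4 groups overlapped, and since the deletion is placed in the microenvironment, these levels do not check the labels.

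Tet3, the Tet gene with the most counts per length, was the member whose groups separated in opposite directions in CPM. The share of all genes that did so was not counted. Tet3 had 60.3, 39.7 and 40.5 CPM in KO treated, 31.9, 26.9 and 27.0 CPM in the WT treated, 21.7 and 35.9 CPM in the KO vehicle and 36.1, 50.4 and 68.2 CPM in WT vehicle libraries. In treated hosts every KO library lay above every WT library, and in vehicle hosts every KO library lay below every WT library, the nearest pair there being 35.9 and 36.1 CPM. The log2 fold change was 0.71 ± 0.36 for KO over WT in treated hosts (edgeR adjusted p = 0.509) and -0.84 ± 0.41 in vehicle hosts (edgeR adjusted p = 0.729). Treated over vehicle, it was -0.85 ± 0.36 in the WT niche (edgeR unadjusted p = 0.0358, adjusted p = 0.246) and 0.70 ± 0.41 in the KO niche (edgeR adjusted p = 1). These contrasts share groups. The interaction, which tests the difference itself, was 1.55 ± 0.54 with an edgeR unadjusted p of 0.0148 and an adjusted p of 0.767, and did not pass. Without KO vehicle library 249 the Tet3 value was -0.53 in vehicle hosts and 0.37 in the KO niche, and without 275 the KO niche value was 1.08. Without libraries 253 and 265 the interaction was 0.91, the vehicle-host value -0.21 and the WT niche value -0.22. With the length trend removed the values were 0.20 in treated hosts and 0.31 in the KO niche. They were then -1.10 in vehicle hosts and -0.99 in the WT niche, beside -0.34 and -0.29 over all genes. Genes of like length (within 20% of Tet3) had medians of 0.56 in treated and -0.16 in vehicle hosts. Their medians were -0.25 in the WT niche, 0.47 in the KO niche and 0.74 for the interaction.

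Tet1, the Tet enzyme best known from embryonic stem cells, varied most among the members, with an SD of 1.01 in log2 CPM over the 11 libraries. It had 24.2, 36.2 and 9.96 CPM in KO treated, 12.6, 12.5 and 4.60 CPM in the WT treated, 20.7 and 21.8 CPM in the KO vehicle and 15.6, 41.1 and 5.30 CPM in WT vehicle libraries. The highest library had 8.95 times the level of the lowest, a ratio that was larger for Tet2 (9.61, through library 257). Every pair of groups compared overlapped for Tet1. The log2 fold change was 1.24 ± 0.74 for KO over WT in treated hosts (edgeR adjusted p = 0.582) and 0.04 ± 0.81 in vehicle hosts (edgeR adjusted p = 1). Treated over vehicle, it was -1.06 ± 0.73 in the WT niche (edgeR adjusted p = 0.459) and 0.14 ± 0.81 in the KO niche (edgeR adjusted p = 1). The WT niche value of Tet1 rested on WT vehicle library 253, the highest of the 11, and was -0.086 without it. With limma voom the WT niche value was -0.31. The treated-host value was 0.83 without KO treated library 263, 1.57 without 276 and 0.77 with the length trend removed. Genes of like length to Tet1 had a median of 0.52 in treated hosts.

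Within the Tet family, Tet3 held the largest share of the summed TPM in 10 of 11 libraries. Tet2 took 25.5% ± 19.1 in KO treated, 33.8% ± 5.71 in WT treated, 37.3% ± 10.2 (n = 2) in the KO vehicle and 22.2% ± 8.48 in WT vehicle libraries (SD, n = 3 where not given). In library 257 its share was 4.32%. Within the methyltransferases, Dnmt1 took 59.8% to 82.1% of the summed TPM in a library. Its mean was 69.9% ± 10.9 in KO treated, 63.8% ± 3.14 in WT treated, 76.6% ± 5.74 (n = 2) in the KO vehicle and 70.9% ± 10.7 in WT vehicle libraries. The groups' ranges overlapped between KO and WT in treated and in vehicle hosts for Dnmt1.

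**Figure D2:**
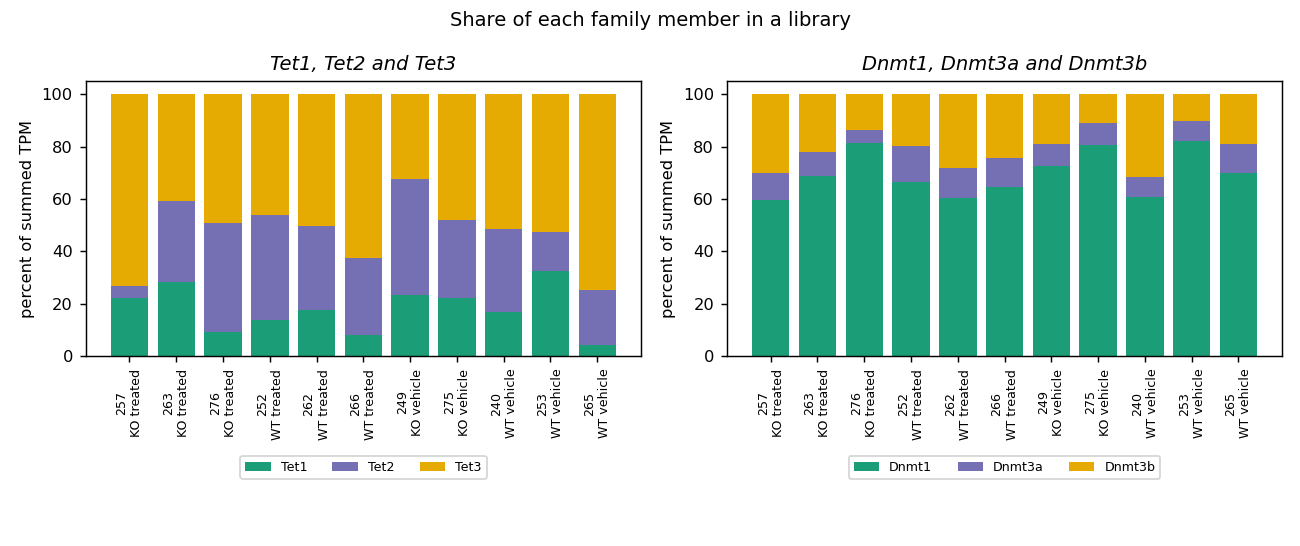
Share (percent) of each family member in the summed TPM of its family, 1 bar per library, for the Tet genes (left) and the methyltransferases (right). The Tet2 share was 4.32% in library 257, and Dnmt1 took 59.8% to 82.1% of the methyltransferase TPM in each library.

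Dnmt1 and Uhrf1, the maintenance pair, were both lower in the WT treated libraries than in vehicle libraries of either niche. Their promoter windows from RefSeq (build GRCm38.p6, 250 bases before to 50 after a transcript start, printed 5′ to 3′ on the gene's strand) are shown because both hold the letters TTTCGCGC, of the type bound by E2F factors, which switch on genes for DNA replication. Capitals mark TTTCGCGC or its reverse complement GCGCGAAA, and in Dnmt1 also TTTGGCGC. The Dnmt1 window lies at chr9:20952574-20952873 on the minus strand and the Uhrf1 window at chr17:56304063-56304362 on the plus strand; each gene has other annotated starts.

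Dnmt1: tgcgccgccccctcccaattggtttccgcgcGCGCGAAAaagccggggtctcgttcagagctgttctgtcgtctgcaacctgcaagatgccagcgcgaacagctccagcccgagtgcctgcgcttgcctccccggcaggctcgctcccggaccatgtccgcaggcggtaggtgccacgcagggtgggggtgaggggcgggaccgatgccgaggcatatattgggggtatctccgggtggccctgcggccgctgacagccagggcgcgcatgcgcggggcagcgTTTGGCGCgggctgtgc
Uhrf1: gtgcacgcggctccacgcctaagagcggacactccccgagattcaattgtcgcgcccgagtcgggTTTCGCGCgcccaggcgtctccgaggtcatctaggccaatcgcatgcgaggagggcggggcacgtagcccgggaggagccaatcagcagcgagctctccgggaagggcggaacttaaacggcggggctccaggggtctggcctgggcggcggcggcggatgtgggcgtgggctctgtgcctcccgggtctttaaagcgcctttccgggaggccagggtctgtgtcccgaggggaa

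On both strands, TTTCGCGC was found in 2 of the 15 windows of the 9 genes (13.3%) and in 0.323% of all 32851 windows. In Dnmt1 it lies at positions 32 to 39, counted from the first printed base, with TTTGGCGC (0.514% of all windows) at positions 284 to 291. In Uhrf1 it lies at positions 66 to 73. Another variant, TTTCCCGC, was in none of the 15 windows and in 1.07% of all. Any of the 3 was in 9 of 25 windows of the S phase list (36%) and in 1.84% of all windows. The letters were chosen after these sequences had been seen, so the shares are not a test. All 3 variants hold CpG (C followed by G), of which the 15 windows had a median of 23 and all windows a median of 7. A match is a description, not a bound site.

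Dnmt1, which copies methylation onto new DNA strands, had 189, 333 and 356 CPM in KO treated, 125, 106 and 101 CPM in the WT treated, 321 and 289 CPM in the KO vehicle and 198, 227 and 221 CPM in WT vehicle libraries. The 3 WT treated libraries were the lowest of all 11, and KO lay above WT without overlap in treated and in vehicle hosts. Group means were 293 ± 90.7 CPM in KO treated, 111 ± 12.3 in WT treated, 305 ± 22.7 (n = 2) in the KO vehicle and 215 ± 15.6 in WT vehicle libraries (SD, n = 3 where not given). The log2 fold change of KO over WT in treated hosts was 1.40 ± 0.29, which ranked 16 of 16639 genes by p (edgeR unadjusted p = 0.0005, adjusted p = 0.379). In vehicle hosts it was 0.50 ± 0.32 (edgeR adjusted p = 0.800). Treated over vehicle, it was -0.96 ± 0.29 in the WT niche (edgeR unadjusted p = 0.0065, adjusted p = 0.177) and -0.06 ± 0.32 in the KO niche (edgeR adjusted p = 1). The interaction was 0.90 ± 0.44 (edgeR adjusted p = 0.767), so the niches were not shown to differ in their treatment effect.

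Uhrf1, which reads hemimethylated DNA and recruits Dnmt1, had 70.8, 239 and 304 CPM in KO treated, 85.7, 98.9 and 72.1 CPM in the WT treated, 293 and 238 CPM in the KO vehicle and 137, 259 and 231 CPM in WT vehicle libraries. KO treated library 257 had the lowest value of the 11, and the other KO treated libraries averaged 3.84 times its level. The other 2 KO treated libraries lay above every WT treated library, and the WT treated libraries all lay below the WT vehicle libraries. The KO over WT log2 fold change in treated hosts was 1.26 ± 0.46 (edgeR unadjusted p = 0.0191, adjusted p = 0.434). In vehicle hosts it was 0.35 ± 0.51 (edgeR adjusted p = 0.961). Treated over vehicle, it was -1.29 ± 0.46 in the WT niche (edgeR unadjusted p = 0.0172, adjusted p = 0.202) and -0.38 ± 0.51 in the KO niche (edgeR adjusted p = 1). The TPM ratio of Dnmt1 to Uhrf1 was 1.06 ± 0.49 in KO treated, 0.80 ± 0.13 in WT treated, 0.70 ± 0.05 (n = 2) in the KO vehicle and 0.67 ± 0.19 in WT vehicle libraries. It was 1.63 in library 257 and below 1 in the other 10.

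Both differences moved with single KO treated libraries and with transcript length. Without library 257, Dnmt1 had a log2 fold change of 1.64 (edgeR adjusted p = 0.0076) and Uhrf1 of 1.66 (edgeR adjusted p = 0.0111) for KO over WT in treated hosts. That fit called 1513 genes, 9.26% of those tested. Without KO treated library 276 the values were 1.19 for Dnmt1 and 0.78 for Uhrf1 (edgeR adjusted p = 1 for both). Treated over vehicle in the WT niche, Uhrf1 was at -0.56 without libraries 253 and 265 (edgeR adjusted p = 0.724). In vehicle hosts Uhrf1 ranged from 0.12 without WT vehicle library 240 to 0.54 without 253. Genes within 20% of the transcript length of Dnmt1 had a median of 0.69 in the same contrast, and those near Uhrf1 in length a median of 0.41. With the length trend of each library removed, Dnmt1 was at 0.78 (edgeR adjusted p = 0.906) and Uhrf1 at 0.85 (edgeR adjusted p = 0.937), beside a median of 0.03 over all genes. In the WT niche, treated over vehicle, the values with the trend removed were -0.97 for Dnmt1 and -1.40 for Uhrf1 (edgeR adjusted p = 0.166 and 0.172), where the median of all genes was at -0.29. With the trend removed and library 257 left out, Dnmt1 was at 0.85 (edgeR adjusted p = 0.250) and Uhrf1 at 1.19 (edgeR adjusted p = 0.227) for KO over WT in treated hosts. The difference in vehicle hosts was 0.01 for Dnmt1 once the trend was removed, beside a median of -0.34 over all genes. As reported these were 0.50 and 0.00.

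**Figure D3:**
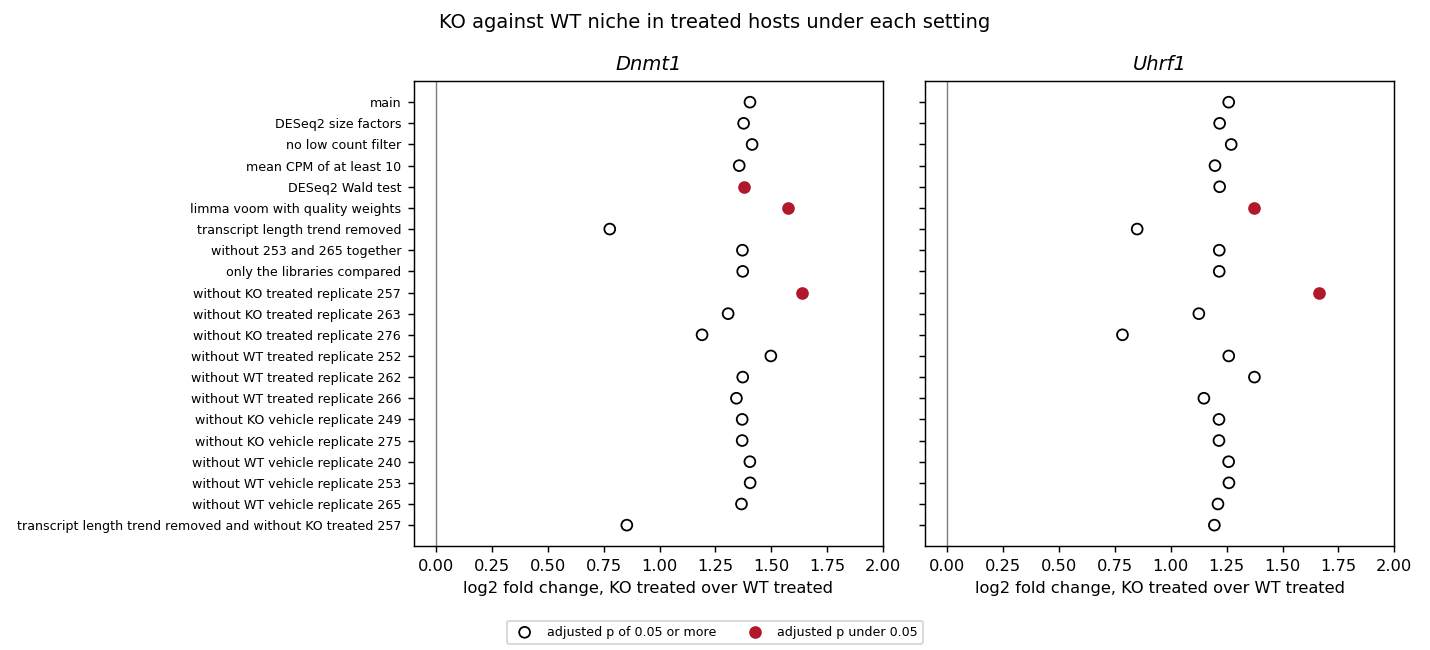
Log2 fold change (KO treated over WT treated) of Dnmt1 (left) and Uhrf1 (right) under each way of fitting the counts, with filled points for an adjusted p under 0.05. The values stayed above 0 in all 21 fits drawn, and were 0.78 and 0.85 with the transcript length trend removed.

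Of the de novo methyltransferases Dnmt3a and Dnmt3b, only Dnmt3b separated KO from WT libraries, in treated hosts; the difference between the genes was not tested. Dnmt3a, whose loss is known to expand mouse blood stem cells, had 53.4, 73.5 and 36.1 CPM in KO treated, 42.9, 33.0 and 28.4 CPM in the WT treated, 61.6 and 49.9 CPM in the KO vehicle and 41.1, 34.5 and 57.4 CPM in WT vehicle libraries. Every pair of groups compared overlapped. Its log2 fold change was 0.64 ± 0.35 for KO over WT in treated hosts (edgeR adjusted p = 0.554), where genes of like length had a median of 0.66. It was 0.33 ± 0.39 for KO over WT in vehicle hosts (edgeR adjusted p = 0.937), and -0.35 ± 0.35 for treated over vehicle in the WT niche (edgeR adjusted p = 0.635). In the KO niche it was -0.04 ± 0.39 (edgeR adjusted p = 1). The treated-host value of Dnmt3a was 0.39 without KO treated library 263, and the WT niche value -0.10 without WT vehicle library 265. Its vehicle-host value ranged from 0.18 without KO vehicle library 249 to 0.58 without WT vehicle library 265. Of its exonic bases, 133 (0.799%) lie over the antisense gene Dnmt3aos.

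Dnmt3b had 69.7, 79.4 and 43.7 CPM in KO treated, 27.4, 36.6 and 28.0 CPM in the WT treated, 61.9 and 28.7 CPM in the KO vehicle and 75.8, 21.0 and 44.6 CPM in WT vehicle libraries. In treated hosts KO lay above WT without overlap, while in vehicle hosts KO and WT overlapped. Its log2 fold change was 1.07 ± 0.47 for KO over WT in treated hosts (edgeR unadjusted p = 0.0447, adjusted p = 0.463), beside a median of 0.55 over genes of like length, and 0.65 with the length trend removed. It was -0.06 ± 0.53 for KO over WT in vehicle hosts (edgeR adjusted p = 1), and -0.62 ± 0.47 for treated over vehicle in the WT niche (edgeR adjusted p = 0.505). In the KO niche it was 0.50 ± 0.53 (edgeR adjusted p = 1). Both treatment values of Dnmt3b moved with single vehicle libraries. The WT niche value was -0.096 without library 240 and -0.98 without 253, and the KO niche value was 0.012 without library 275 and 1.14 without 249.

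Idh1, the cytosolic isocitrate dehydrogenase, had 49.9, 103 and 192 CPM in KO treated, 72.4, 125 and 117 CPM in the WT treated, 150 and 251 CPM in the KO vehicle and 83.9, 282 and 75.1 CPM in WT vehicle libraries. Library 257 was again the lowest of the 11, and every pair of groups compared overlapped. Its log2 fold change was 0.13 ± 0.57 for KO over WT in treated hosts, 0.45 ± 0.64 in vehicle hosts, -0.49 ± 0.58 for treated over vehicle in the WT niche and -0.80 ± 0.63 in the KO niche. None passed (edgeR adjusted p = 0.970, 0.960, 0.691 and 1). With 1 library left out, the vehicle-host value of Idh1 ranged from 0.011 (without 275) to 1.33 (without 253), and the KO niche value from -1.44 (without 276) to -0.43 (without 275).

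Idh2, the mitochondrial enzyme, varied least among the 9 genes, with the highest library at 2.31 times the lowest. It had 329.7, 329.0 and 329.7 CPM in KO treated, 316, 578 and 419 CPM in the WT treated, 416 and 419 CPM in the KO vehicle and 251, 444 and 466 CPM in WT vehicle libraries. The KO treated libraries lay within 1 CPM of each other, library 257 included, and all below the KO vehicle libraries. In TPM the KO treated libraries were at 239, 491 and 325, and overlapped the KO vehicle libraries (519 and 472). Its log2 fold change was -0.41 ± 0.32 for KO over WT in treated hosts (edgeR adjusted p = 0.713; -0.16 without WT treated library 262) and 0.11 ± 0.36 in vehicle hosts (edgeR adjusted p = 0.999). Treated over vehicle, it was 0.18 ± 0.32 in the WT niche (edgeR adjusted p = 0.804) and -0.34 ± 0.35 in the KO niche (edgeR adjusted p = 1). The TPM ratio of Idh2 to Idh1 ranged from 2.02 to 8.50 over the libraries, the highest being library 257.

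**Figure D4:**
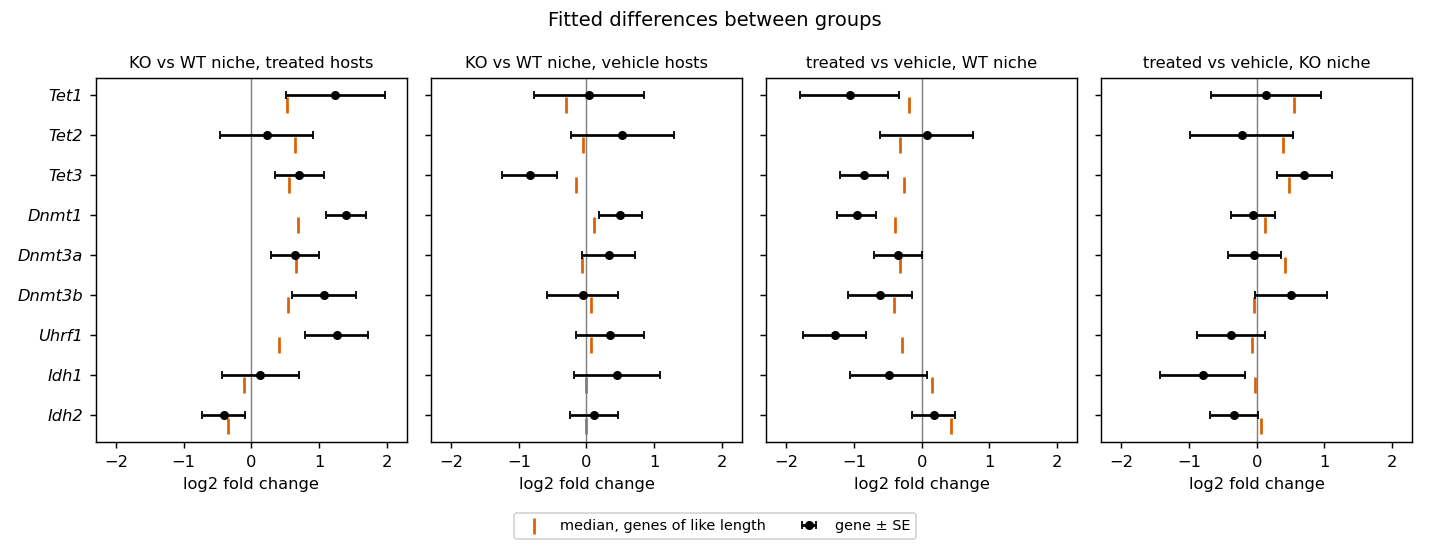
Log2 fold change of each gene ± SE (black) in 4 contrasts, with the median of tested genes within 20% of its transcript length (orange). For KO over WT in treated hosts Dnmt1 stood at 1.40 and Uhrf1 at 1.26, beside medians of 0.69 and 0.41 for genes of like length.

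No member passed the edgeR test at an adjusted p under 0.05 in any of the 7 contrasts, and neither did any other gene (0% of 16639 called). In treated hosts, comparing KO with WT, 8 of 9 members were above 0 (53.9% of all genes were), and their median log2 fold change was 0.71 beside 0.10 over all genes. At an unadjusted p under 0.05, 3 of 9 (Dnmt1, Dnmt3b and Uhrf1) were higher, where 7.13% of all genes were higher and 10.6% passed in either direction. The groups did not overlap for 3 of 9 (Tet3, Dnmt1 and Dnmt3b, all higher in KO), beside 19.3% of all genes (9.71% higher). With the length trend removed the members' median was 0.27, beside 0.03 over all genes. DESeq2 called 1 member (Dnmt1, adjusted p = 0.0006; 1.36% of all genes called). The limma voom fit with quality weights called 4 (Dnmt1, Uhrf1, Dnmt3a and Dnmt3b) while calling 26.3% of all genes.

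In vehicle hosts, comparing KO with WT, 7 of 9 members were above 0 (48.7% of all genes were), with a median of 0.33 beside 0.00 over all genes. With the length trend removed, the median of all genes moved to -0.34. The share of all genes above 0 was not counted in any fit with that trend removed. In this one 3 of 9 members were above 0, and the members' median was -0.14. None had an unadjusted edgeR p under 0.05, beside 6.78% of all genes, and DESeq2 and limma voom called none of the 9 (1.24% and 0% of all genes). In CPM the groups did not overlap for Tet2 and Dnmt1 (higher in KO) and Tet3 (lower in KO), 3 of 9 beside 20.7% of all genes (13.2% higher and 7.47% lower). Averaged over both treatments, Dnmt1 had a KO over WT log2 fold change of 0.95 ± 0.22 (edgeR unadjusted p = 0.0009, adjusted p = 0.195) and Uhrf1 of 0.80 ± 0.34 (edgeR adjusted p = 0.434). These were the 2 of 9 members at an unadjusted p under 0.05, both higher, beside 10.9% of all genes (8.1% higher). In that contrast DESeq2 called Dnmt1 (2.23% of all genes called), and limma voom (3.28%) and edgeR without library 257 (6.12%) each called Dnmt1 and Uhrf1. Their values there were 0.39 for Dnmt1 and 0.35 for Uhrf1 with the length trend removed (edgeR adjusted p = 0.535 and 0.726).

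For treated over vehicle in the WT niche, 2 of 9 members were above 0 (52.6% of all genes were), with a median of -0.62 beside 0.09 over all genes. At an unadjusted p under 0.05, 3 of 9 (Tet3, Dnmt1 and Uhrf1) were lower, where 8.11% of all genes were lower and 18.2% passed in either direction. The same 3 had groups that did not overlap, beside 27.7% of all genes (10.1% lower). DESeq2 called Dnmt1 (adjusted p = 0.021; 6.42% of all genes called) and limma voom called none of the 9 (0% of all genes). Without library 257, edgeR called Dnmt1 (adjusted p = 0.0163) and Uhrf1 (adjusted p = 0.0269) with 6.19% of all genes. With the length trend removed all 9 were negative, with a median of -0.97 beside -0.29 over all genes, whose share below 0 was not counted.

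For treated over vehicle in the KO niche, 3 of 9 members were above 0 (56.1% of all genes were), with a median of -0.06 beside 0.12 over all genes. Once the length trend was removed 2 of 9 were above 0, with a median of -0.41 beside -0.01 over all genes. None had an unadjusted edgeR p under 0.05, beside 3.68% of all genes, and DESeq2 (0.138% of all genes) and limma voom (0%) called none of the 9. In CPM the groups did not overlap for Tet3 (higher) and Idh2 (lower), 2 of 9 beside 22.4% of all genes (12.3% higher and 10.1% lower). For the interaction, Tet3 alone had an unadjusted edgeR p under 0.05 (1 of 9 and higher, beside 6.31% of all genes, 3.04% higher), and DESeq2 (0.349%) and limma voom (0%) called no member. Averaged over both niches, treatment gave -0.51 ± 0.22 for Dnmt1 (edgeR unadjusted p = 0.0359, adjusted p = 0.287) and -0.83 ± 0.34 for Uhrf1 (edgeR unadjusted p = 0.0315, adjusted p = 0.277), 2 of 9 lower beside 16% of all genes (6.05% lower). DESeq2 (2.55%) and limma voom (0.00601%) called no member there. Without libraries 253 and 265 the mean treatment effect of Uhrf1 was -0.49.

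Other genes of the pathway were described by lists. Comparing KO with WT in treated hosts, none of their genes passed the edgeR test, and counts below are at an unadjusted p under 0.05, beside 7.13% of all genes higher and 3.5% lower. Of the base excision genes, 2 of 11 tested were higher and 0 lower, with a median of 0.45. They were Parp1 (1.12 ± 0.32), a sensor of strand breaks, and Lig3 (2.15 ± 0.72), a ligase. Of the methyl-CpG readers, 1 of 8 was higher (Mbd1, 1.19 ± 0.51), with a median of 0.03 (-0.12 with the length trend removed). Of the partners of Tet and Dnmt proteins, 3 of 15 were higher with a median of 0.43, led by Usp7 (1.43 ± 0.37), a deubiquitinase that binds Dnmt1 and Uhrf1, and Hells (1.20 ± 0.32), a remodeller needed for DNA methylation.

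Among the genes of 2-oxoglutarate and 2-hydroxyglutarate metabolism, 1 of 19 was higher and 3 were lower in the same contrast, with a median of 0.39. Ogdh, which consumes 2-oxoglutarate, was at 1.76 ± 0.46, and Sdhb, a subunit of succinate dehydrogenase, at -1.06 ± 0.32. Of the methyl donor cycle, 2 of 14 were higher, Ahcyl1 (1.47 ± 0.44) and the folate enzyme Mthfd1 (1.26 ± 0.55), with a median of 0.56. Both vitamin C transporters tested had wide errors (Slc23a1 at 1.69 ± 2.09 and Slc23a2 at 0.63 ± 1.14) and neither was counted. Other 2-oxoglutarate dioxygenases, mostly histone demethylases, had 7 of 17 higher, 0 lower and a median of 0.94, with Kdm5c at 1.86 ± 0.54 and Kdm5b at 1.21 ± 0.39. With the length trend removed that median was 0.51, beside 0.03 over all genes.

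Treatment in the WT niche was set against vehicle in the same way. That contrast shares the WT treated libraries, with opposite sign, with KO over WT in treated hosts, so values of the 2 contrasts are not independent. With 8.11% of all genes lower and 10.1% higher at that p, the dioxygenases had 6 of 17 lower and none of 17 positive. Their median was -0.68, beside 0.09 over all genes. With the length trend removed 1 was positive and the median was -0.79, beside -0.29 over all genes. Kdm5b stood at -1.42 ± 0.39 and Kdm3a at -1.67 ± 0.49. Base excision genes had 4 of 11 lower, among them Tdg (-1.36 ± 0.42), which excises oxidised methylcytosine, and Parp1 (-0.93 ± 0.32). The partners had 2 of 15 lower, Cxxc1 (-1.08 ± 0.33), which binds unmethylated CpG, and Hells (-0.96 ± 0.32). The readers had 1 of 8 lower (Mbd1, -1.25 ± 0.51), and the methyl donor cycle 3 of 14 lower, among them Ahcyl1 (-1.48 ± 0.44) and Ahcy (-0.69 ± 0.30), which clears the by-product of methyl transfer. In 2-oxoglutarate metabolism 5 of 19 were lower and 1 higher, with Ogdh at -1.65 ± 0.46 and Sdhb at 1.52 ± 0.33. Neither vitamin C transporter was counted.

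In the other 2 comparisons no gene of the lists passed the edgeR test, and few pathway genes were counted at an unadjusted p under 0.05. For KO over WT in vehicle hosts (4.8% of all genes higher and 1.98% lower at that p) only Idh3a of the 2-oxoglutarate list (0.74 ± 0.33, higher) and Pola1 of the S phase list (-0.78 ± 0.33, lower) were counted among the pathway and cell cycle lists. Of the S phase genes 25 of 27 were above 0 with a median of 0.34, beside 0.00 over all genes. Once the length trend was removed 11 of 27 were above 0 with a median of -0.09, beside -0.34 over all genes, whose share above 0 was not counted. Treated over vehicle in the KO niche (2.7% higher and 0.974% lower), Cxxc1 (-0.84 ± 0.36), Idh3a (-0.78 ± 0.33) and Aco1 (-1.06 ± 0.48) were lower. Pola1 (1.26 ± 0.34) and 2 of 15 G2 and M genes, Cenpf (1.29 ± 0.46) and Top2a (0.74 ± 0.32), were higher. Idh3a is a subunit of the mitochondrial isocitrate dehydrogenase that makes 2-oxoglutarate with NAD.

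Dnmt1 and Uhrf1 are known to be made mainly in dividing cells, so the cell cycle lists are given beside them. Between KO and WT treated hosts, 7 of 27 S phase genes were higher and 1 lower at an unadjusted p under 0.05, with a median of 0.39, led by Chaf1a (1.49 ± 0.39), a histone chaperone, and Pold1 (1.33 ± 0.35), a DNA polymerase subunit. The G2 and M phase list had 4 of 15 higher and 0 lower, with a median of 0.15. Over all genes 7.13% were higher and 3.5% lower at that p. In the WT niche, treated over vehicle, the S phase list was split, with 5 of 27 lower (Chaf1a, -1.74 ± 0.40) and 4 higher (Tyms, thymidylate synthase, 1.56 ± 0.33), and the G2 and M list had 1 of 15 higher (Birc5, 1.15 ± 0.36). Beside these, 8.11% of all genes were lower and 10.1% higher. Mki67, a marker of cycling cells, had 255, 175 and 314 CPM in KO treated, 183, 134 and 132 CPM in the WT treated, 127 and 186 CPM in the KO vehicle and 198, 214 and 257 CPM in WT vehicle libraries. Mean S phase expression was 6.23, 6.50 and 7.03 log2 CPM in KO treated and 6.08, 6.55 and 6.44 in WT treated libraries, which overlap. The part of cell cycling in the Dnmt1 and Uhrf1 differences was not tested.

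Markers of other cell types also differed in level between the groups. In treated hosts, KO over WT, 8 of 8 erythroid markers were higher at an unadjusted p under 0.05 (Alas2, 8.33 ± 1.65), and 4 of 8 granulocyte markers were lower (Ngp, -3.24 ± 0.98). Over all genes 7.13% were higher and 3.5% lower. Granulocyte markers summed to 7951 to 24679 CPM in the KO libraries and to 22258 to 112180 CPM in the WT libraries. Counts higher and lower for the remaining marker lists were 1 and 0 of 8 stem cell, 0 and 1 of 5 monocyte, 0 and 0 of 4 megakaryocyte, 0 and 1 of 5 B cell, 0 and 0 of 6 T and NK cell, and 0 and 0 of 4 stromal and endothelial genes tested. Summed T and NK markers were 294 to 1222 CPM (KO treated) and 986 to 1705 CPM (WT treated), and summed stromal and endothelial markers 1.46 to 6.02 CPM (KO treated) and 0.81 to 3.68 CPM (WT treated). A T and NK sum can rest on 1 gene, as given below for vehicle libraries. In vehicle hosts, KO over WT, 6 of 8 erythroid, 3 of 4 megakaryocyte, 4 of 6 T and NK and 1 of 4 stromal and endothelial markers were higher. Of all genes 4.8% were higher and 1.98% lower at that p. KO vehicle library 275 stood apart from the other KO vehicle library, 249. Erythroid markers summed to 14206 CPM in 275 and 273 in 249, against 50.1 to 849 CPM in WT vehicle libraries. Megakaryocyte markers summed to 594 CPM in 275 and 33.8 in 249, against 5.31 to 33.5 CPM in WT vehicle libraries. Stromal and endothelial markers summed to 39.4 CPM in 275 and 0.09 in 249, against 0.82 to 3.88 CPM in WT vehicle libraries. The 4 T and NK markers counted (Cd8a, Trac, Cd3g and Cd3e) had 1.47 to 9.08 CPM in 275, 0 in 249 and at most 0.12 CPM in WT vehicle libraries. Ncr1 had no counts in any vehicle library. Nearly all of the T and NK sum there was therefore Nkg7 (832 CPM in 249 and 449 to 705 CPM in WT vehicle libraries). Treated over vehicle in the WT niche, 1 of 8 erythroid, 1 of 5 B cell and 2 of 6 T and NK markers were higher and 1 of 5 monocyte markers was lower. The shares of all genes were 10.1% higher and 8.11% lower. In the KO niche 1 of 5 B cell markers was higher, and 2 of 4 megakaryocyte and 1 of 8 granulocyte markers were lower. There 2.7% of all genes were higher and 0.974% lower. Megakaryocyte markers summed to 21.5 to 50.01 CPM in KO treated libraries, a range that holds library 249 and lies below 275. Their part in the differences of Tet3, Dnmt1, Uhrf1 and Dnmt3b was not tested.

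Library by library, the pair of members most alike was Dnmt1 and Uhrf1, with a root mean square difference of 0.41 between their centred log2 CPM over the 11 libraries. Among 8125 genes of mean log2 CPM of at least 3, those nearest to Uhrf1 were Cse1l (0.17), a nuclear export receptor, Mcm2 (0.18), a subunit of the replicative helicase, and Rfwd3 (0.19), a ubiquitin ligase of replication repair; the median gene was at 0.94. Mcm2 had 85.0, 244 and 438 CPM in KO treated, 97.8, 131 and 107 CPM in the WT treated, 360 and 305 CPM in the KO vehicle and 173, 280 and 230 CPM in WT vehicle libraries, low in 257 and in the WT treated libraries as Uhrf1 was. Nearest to Dnmt1 were Ptpa (0.16), Hdac5 (0.18) and Mllt1 (0.18). Nearest to Tet2 was Ogt (0.39), whose sugar transferase binds Tet proteins, with Lss and Brox at 0.43 each. Ogt had 21.8 CPM in library 257 and 43.0 to 122 CPM in the other 10, so it shared the low library with Tet2. These distances are descriptions over shared libraries, which also share depth and length trend.

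**Figure D5:**
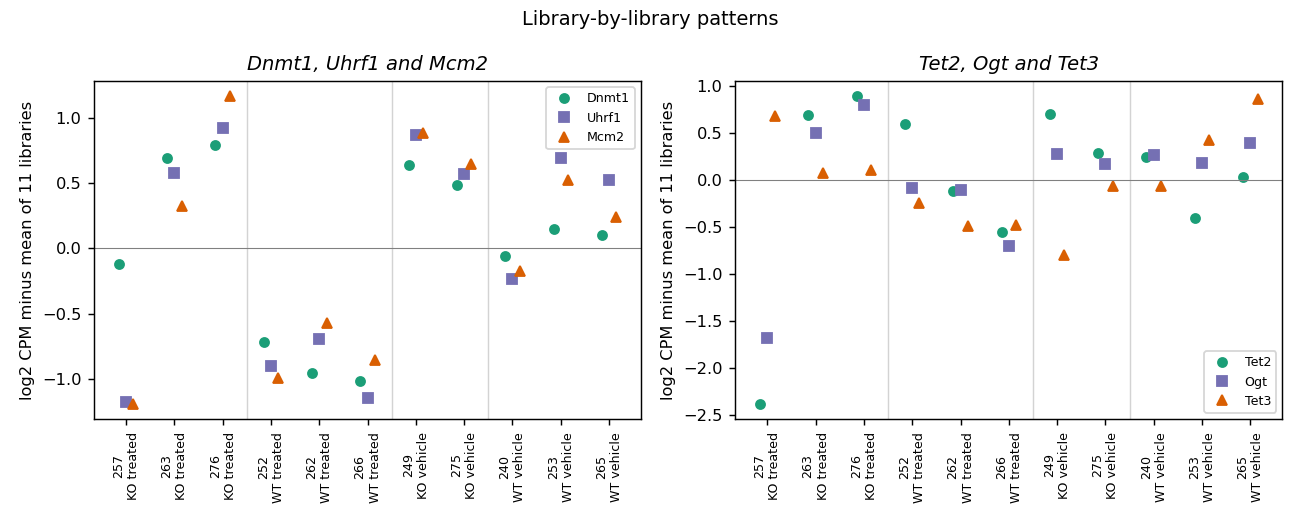
Log2 CPM of each gene minus its mean over the 11 libraries, for Dnmt1, Uhrf1 and Mcm2 (left) and for Tet2, Ogt and Tet3 (right), with grey lines between groups. Uhrf1 and Mcm2 were low in library 257 and in the WT treated libraries, and Tet2 and Ogt were lowest in library 257, where Tet3 was above its mean.

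For the other members the nearest 3 genes were as follows. Tet3 lay nearest to Trim39 (0.23), Phip (0.25) and S1pr4 (0.25), Tet1 to Csrnp1 (0.43), Exoc6b (0.49) and Ppp1r13b (0.52), and Dnmt3a to Rest (0.21), Zfp282 (0.23) and Lcmt2 (0.23). Dnmt3b lay nearest to Slc25a23 (0.30), Smarcc1 (0.35) and Golga4 (0.35), Idh1 to Foxred1 (0.24), Rcc1 (0.27) and Apmap (0.29), and Idh2 to Sae1 (0.15), Slc35b2 (0.16) and Snrnp40 (0.17).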

How the data were processed

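Libraries of RNA from sorted ST-HSC were made with the RNeasy Plus Micro, SMARTer Ultra Low Input and Nextera XT kits, per the labels' protocols. The deposited table holds raw, unnormalized counts for 53700 Ensembl genes, with 5 summary lines of the counter; all values are whole. The submitters' processing notes name GRCm39 as the build and, without roles, STAR 2.7.9a, Trim Galore 0.6.7, HTSeq (with version 0.6.7), bcl2fastq and DESeq2; annotation release, strand setting and filters are not given in the sources used here. The summary lines were left out of library sizes; reads in no gene were 5.98% to 30.4%, ambiguous reads 2.34% to 6.31% and reads at several places 11.6% to 30.0% of a library.

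Symbols (52093 genes) and longest-transcript lengths (99.7% of the genes tested) came from an annotation of an earlier build, matched by stable gene ID. Counts were fitted in R 4.3.3 with edgeR 4.0.16 (filterByExpr, TMM, robust quasi-likelihood, 1 model with 4 groups, 7 contrasts, Benjamini-Hochberg adjustment over the 16639 genes tested, threshold 0.05); the biological coefficient of variation was 0.783. SE is the absolute log2 fold change over the root of F. CPM uses TMM-scaled library sizes. The fit was tested on simulated data. Alternatives were DESeq2 size factors, no filter, a mean CPM of at least 10, DESeq2 1.42.0, limma 3.58.1 voom with quality weights, only the libraries compared, a lowess length trend (span 0.3) removed as an offset, leaving out 253 and 265 together and each library in turn; removing the trend without 257 was added after the data were seen. No pairs of libraries agreed within sampling noise (55 pairs). The labels give no batch or pairing. Counts carry no molecular identifiers.

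The members, the 17 other lists (193 genes, all matched) and the naming rule were chosen with earlier results of these data known. The rule names all members, Cxcl12, Mki67, the 2 genes of smallest p per list and the 3 nearest genes of a member; Ogt and Mcm2 come under the last part. Promoter windows came from RefSeq on GRCm38.p6, matched by symbol for all 9 genes.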

Additional observations from a re-analysis of the deposited data

Results flagged for a closer look

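Tet3 differed in direction between conditions. Its log2 fold change for treated over vehicle was 0.70 in the KO niche and -0.85 in the WT niche, and for KO over WT it was 0.71 in treated hosts and -0.84 in vehicle hosts. Genes of like length had medians of 0.47, -0.25, 0.56 and -0.16 in the same order, and of 0.74 for the interaction. In each pair of contrasts all libraries of the compared groups were separated in CPM, in opposite directions. The nearest were 35.9 CPM (KO vehicle) and 36.1 CPM (WT vehicle). Groups did not overlap, in either direction, for 19.3% to 27.7% of all genes in these comparisons taken singly. The share of all genes separated in opposite directions was not counted. In TPM the KO vehicle libraries (4.45 and 6.65) overlapped WT vehicle (5.23 to 11.1) and KO treated libraries (6.55 to 9.71). The difference itself was tested as the interaction, 1.55 ± 0.54 with an edgeR adjusted p of 0.767, and did not pass; it ranged from 1.22 to 1.93 when each library was left out. These are one pattern over the same 4 groups. Depth, erythroid markers and the transcript length trend also differed between those groups, and their part in it was not tested.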

How the results depend on the processing

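No member was called in any contrast by edgeR as reported. Members called numbered 1 with DESeq2 in KO over WT in treated hosts, in the mean niche effect and for treated over vehicle in the WT niche. With limma voom they numbered 4 in KO over WT in treated hosts and 2 in the mean niche effect. Leaving out each library gave 0 to 2 in these 3 contrasts, the 2 being Dnmt1 and Uhrf1 without KO treated 257; the cause was not tested. Genes called in KO over WT in treated hosts numbered 0 as reported, 226 with DESeq2, 4375 with limma voom, 1513 without 257 and 43 with no low count filter. For treated over vehicle in the WT niche they numbered 1069 with DESeq2, 215 with no filter, 1012 without 257 and 190 without WT vehicle 240. Removing the length trend moved the median of all genes to -0.29 for treated over vehicle in the WT niche, against 0.09 as reported, and to -0.34 for KO over WT in vehicle hosts, against 0.00. Reversals below were all of values that did not pass the test. Signs are taken against 0, so with the length trend removed a value could turn and still lie above the median of all genes. This held for Tet1, Uhrf1, Idh1 and Idh2 in vehicle hosts. For treated over vehicle in the WT niche it held for Tet2 but not for Idh2. With limma voom, the values that turned sign were, for treated over vehicle in the WT niche Tet2 -0.042 and Idh1 0.14, for treated over vehicle in the KO niche Tet2 0.090, Dnmt1 0.10 and Dnmt3a 0.18, for the mean treatment effect Tet1 0.034, Tet2 0.024, Dnmt3b 0.012 and Idh2 0.063 and for the interaction Tet2 0.13. With the length trend removed, the values that turned sign were, for KO over WT in treated hosts Tet2 -0.37, for KO over WT in vehicle hosts Tet1 -0.20, Uhrf1 -0.14, Idh1 -0.037 and Idh2 -0.26, for treated over vehicle in the WT niche Tet2 -0.025 and Idh2 -0.66, for treated over vehicle in the KO niche Tet1 -0.44, for the mean treatment effect Dnmt3b 0.065, for the mean niche effect Tet2 -0.050 and for the interaction Idh1 0.31 and Idh2 0.21. Without libraries 253 and 265, the values that turned sign were, for treated over vehicle in the WT niche Tet2 -0.087 and Idh1 0.44, for the mean treatment effect Tet3 0.23 and Idh2 0.28 and for the mean niche effect Tet3 0.24 and Idh2 0.21. In vehicle hosts, KO over WT, Tet1 turned to -0.023 with DESeq2 and -0.023 with its size factors, and Uhrf1 to -0.13 with the trend removed and 257 left out. Dnmt3a, treated over vehicle in the KO niche, turned to 0.029 at a mean CPM of at least 10 and to 0.0095 with only the libraries compared. When each library was left out in turn, the ranges that crossed 0 were, for KO over WT in treated hosts Tet2 -0.28 to 0.73, Idh1 -0.52 to 0.49 and for KO over WT in vehicle hosts Tet1 -0.44 to 1.02, Dnmt3b -0.67 to 0.47, Idh2 -0.12 to 0.25. Further such ranges were, for treated over vehicle in the WT niche Tet2 -0.30 to 0.30, Idh1 -0.83 to 0.40, Idh2 -0.073 to 0.37 and for treated over vehicle in the KO niche Tet1 -0.27 to 0.47, Tet2 -0.75 to 0.28, Dnmt1 -0.27 to 0.18, Dnmt3a -0.29 to 0.15, Uhrf1 -0.85 to 0.030. The last ones were, for the mean treatment effect Tet1 -0.72 to 0.027, Tet2 -0.33 to 0.18, Tet3 -0.24 to 0.12, Dnmt3b -0.28 to 0.28, Idh2 -0.21 to 0.012 and for the mean niche effect Tet3 -0.27 to 0.085, Idh1 -0.053 to 0.73 and for the interaction Tet2 -0.83 to 0.21, Idh1 -1.20 to 0.080. No paired analysis was possible because the groups share no replicate numbers. With one KO vehicle library left out, the spread of its partner was taken from the other groups. With 2 or 3 libraries a group, each value rests on few libraries.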
